A study of Mus musculus with 15 samples.

Results

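The mRNA of 10 interleukin receptor subunits was followed across CD8+ T cells of the mouse: the IL-2 receptor chains Il2ra, Il2rb and Il2rg, the chains Il7r, Il4ra and Il21r that share the Il2rg chain, the IL-6 receptor chains Il6ra and Il6st, and the IL-12 receptor chains Il12rb1 and Il12rb2. The genes were taken by symbol, from a list made with earlier results of these data known. All 10 were present in both tables of expression values, which have 10637 genes in common. RNA sequencing was done on P14 cells, which carry a transgenic T cell receptor (TCR) for a peptide of lymphocytic choriomeningitis virus, so that nearly every CD8+ T cell of these mice sees the same antigen. Naïve cells were lymph node CD8+ T cells, high in CD62L and low in CD44, sorted directly from female mice of 9 to 13 weeks. TCR activated cells had spent 24 h in medium with the peptide gp33–41 at 100 ng/ml, IL-12 at 2 ng/ml and IL-2 at 20 ng/ml, so that ligands of 2 of the receptors were present. Another group had the same culture with 10 µM IC87114, an inhibitor of the phosphoinositide 3-kinase catalytic subunit p110δ (PI3Kdi). Both activated groups were cultured as lymph node cell suspensions and sorted afterwards as living CD8+ cells, without the CD62L and CD44 gates. Naïve and activated groups therefore also differ in how their cells were selected. Each of the 3 replicates was a pool of cells from 3 mice that was split over these conditions. In a separate table, P14 cytotoxic T lymphocytes (CTL), activated for 48 h and then grown for 4 days in 20 ng/ml IL-2, were washed on day 6 and kept for 24 h with IL-2 or without it, with 3 replicates each. The age of the mice behind the CTL and whether they were pooled are not given in the sources used here.

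Cytokine receptors of this kind have no enzyme of their own and signal through JAK kinases bound to their tails, which phosphorylate STAT transcription factors. The common γ chain encoded by Il2rg pairs with a private chain to form the receptors for IL-2, IL-4, IL-7 and IL-21, so that these private chains share a partner. IL-7 keeps resting T cells alive, whereas IL-2 drives the growth of activated T cells and binds with high affinity only where the α chain Il2ra joins Il2rb and Il2rg. IL-12 favours effector differentiation, and IL-6 acts through Il6ra and the signal transducing chain gp130, encoded by Il6st, which many other cytokines also use.

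Values are FPKM (fragments per kilobase of exon, scaled to a fixed number of mapped reads), so levels of different genes can be compared within a library. The spacing of low values put the libraries at about 9.75 to 14.5 M counted fragments. Pearson r between replicates of a group, across genes, was 0.983 to 0.995. Summed FPKM of 10 CD8+ T cell markers was 5367 to 5842 in naïve libraries, 1475 to 1835 in TCR activated libraries, 1610 to 1867 with PI3Kdi, 2663 to 3041 in CTL with IL-2 and 3566 to 3771 in CTL without IL-2. Of 7 B cell markers, 4 were in the first table and summed to 20.89 to 26.29 FPKM in naïve cells and to at most 7.12 FPKM in the activated groups. Of 12 myeloid and dendritic cell markers, 4 were in the first table, with sums of 8.84 to 33.52 in naïve, 14.1 to 30.2 in TCR activated and 3.7 to 5.28 FPKM with PI3Kdi, and the defining genes Lyz2, Csf1r and Cd14 were in neither table. In CTL, 6 of these 12 summed to 58.8 to 80.81 FPKM with IL-2 and to 38.86 to 51.07 FPKM without it. Within that sum Fcer1g was lower without IL-2 (47 ± 12.2 against 9.48 ± 2.56 FPKM), whereas Itgam (0.293 ± 0.095 against 4.09 ± 0.321 FPKM) and Itgax (0.31 ± 0.0917 against 4.55 ± 0.783 FPKM) were higher (SD, n = 3). Of the 6 NK cell markers, only Eomes, which CD8+ T cells also express, was in the first table. The CTL table held 2, Eomes and Klrb1c, of which Eomes was the higher in both groups. Ncr1 was in neither table. Of 5 CD4 and regulatory T cell markers, 4 were in each table and summed to between 10.24 and 43.83 FPKM over all 15 libraries, with Cd4 absent from the first table and Foxp3 from the CTL table. In such bulk samples, fewer cells that express a gene and less of its mRNA per cell cannot be told apart.

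The set divided by level already in naïve cells. Il2rg was among the most abundant mRNA of naïve cells, with 99.2% of genes at a lower mean FPKM, and Il21r, Il6st, Il7r, Il2rb, Il4ra and Il6ra lay above 89.4% to 96.6% of genes. Il12rb1, Il12rb2 and Il2ra were low, above 33.5%, 27% and 11.5% of genes. After TCR activation, Il2ra ranked above 99.1% of genes and Il6ra above 15.7%. In CTL without IL-2, Il7r stood above 98.7% of genes and was the most abundant of the 10 subunits.

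**Figure D1:**
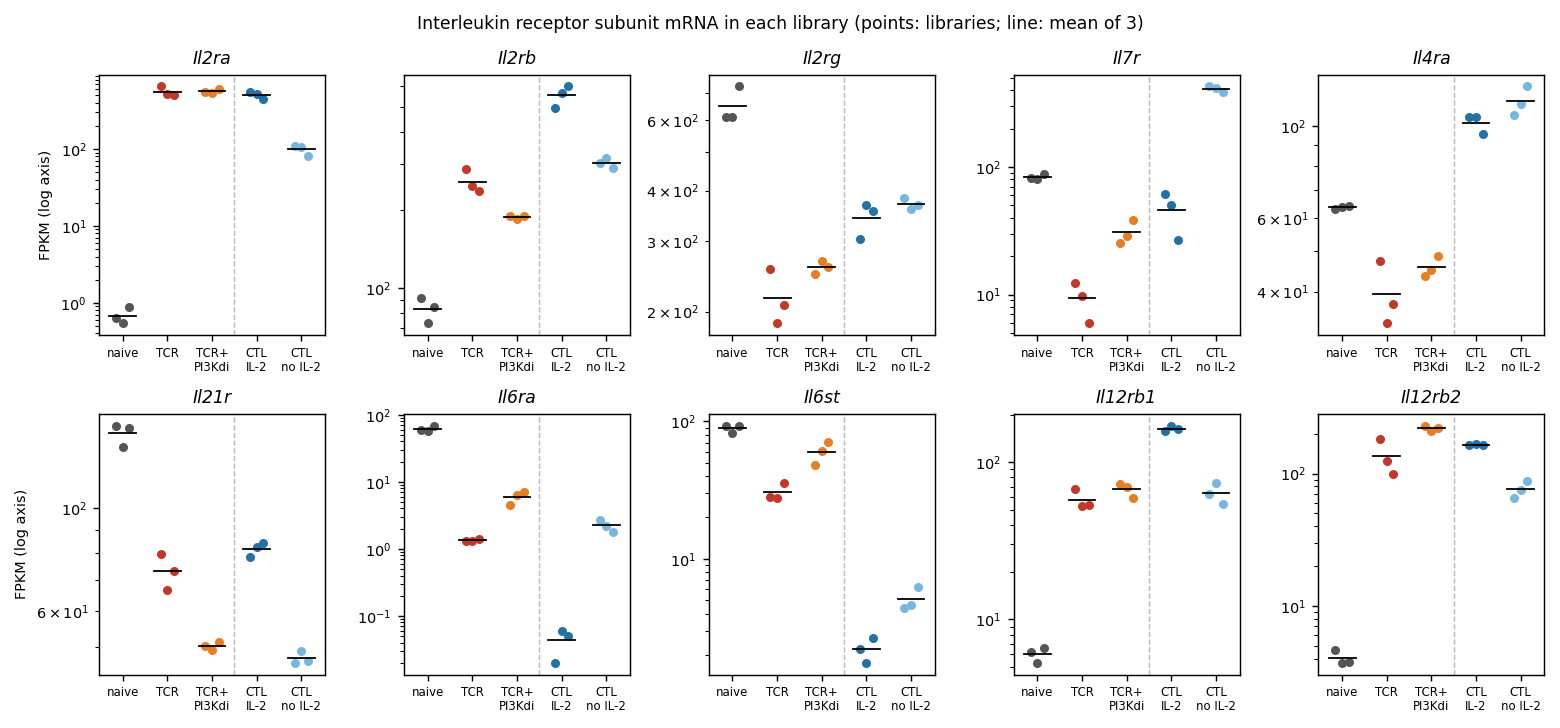
FPKM on a log axis for each of the 10 subunits in the 15 libraries, by group; points are libraries, black lines are means of 3, and the dashed line separates the 2 tables, which were normalised apart. Il2ra lies between 0.54 and 0.87 FPKM in naïve cells and at 501.49 FPKM or more in TCR activated cells, and Il7r lies between 388 and 429.99 FPKM in CTL without IL-2.

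A gene counted as called where limma gave an adjusted p under 0.05 (Benjamini-Hochberg, over every gene of its table) together with a fold change above 2 or below 0.5. Between naïve and TCR activated cells, 4 subunits rose (Il2ra, Il2rb, Il12rb1 and Il12rb2) and 4 fell (Il2rg, Il7r, Il6ra and Il6st), where 25.0% of all genes were called higher and 23.7% lower, 48.7% in all. The other two, Il4ra and Il21r, missed the fold change limit. For all 10 subunits the naïve and TCR activated libraries did not overlap, as was true of 80.7% of genes. Taken without sign, log2 fold changes had a median of 2.42 over the subunits and 0.97 over all genes. The subunits were chosen with earlier results of these data known, so these medians are description only.

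With PI3Kdi added to the activation, 2 subunits rose (Il7r and Il6ra) and 0 fell, where 3.04% of all genes were called higher and 2.10% lower, 5.14% in all. Libraries did not overlap for 6 of the 10 subunits, against 36.7% of genes. Set against naïve cells, the PI3Kdi group had 4 subunits higher and 4 lower, where 23.6% and 21.3% of genes were called, 45.0% in all; the 4 that were lower were Il2rg, Il7r, Il21r and Il6ra. All 10 subunits were without overlap in that comparison, as were 82.9% of genes. These comparisons share libraries and are not independent of each other.

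In CTL, removal of IL-2 for 24 h was accompanied by a rise of 3 subunits (Il7r, Il6ra and Il6st) and a fall of 3 (Il2ra, Il12rb1 and Il12rb2), where 14.3% of all genes were called higher and 13.9% lower, 28.2% in all. For 9 subunits the libraries did not overlap, against 76.1% of genes.

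**Figure D2:**
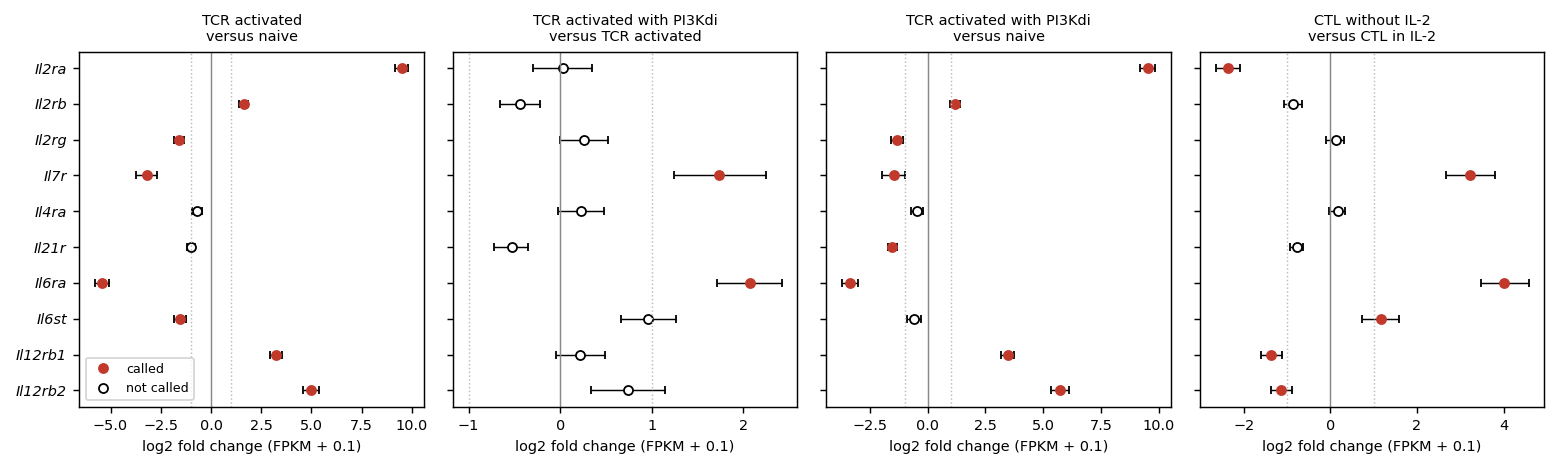
Log2 fold change of each subunit on the log2(FPKM + 0.1) scale in 4 comparisons, with the first named group above the second to the right of 0; bars are 95% intervals from limma with 3 libraries a group, filled points were called and dotted lines mark a fold change of 2. The scales of the panels differ. Only Il7r and Il6ra are filled in the panel for PI3Kdi against TCR activation alone, and Il7r, Il6ra and Il6st lie to the right and filled in the panel for CTL without IL-2.

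Il2ra (chromosome 2, 11642792 to 11693194, plus strand, in RefSeq of GRCm38.p6, the assembly called mm10) encodes CD25, the α chain of the IL-2 receptor. Its mRNA was at 0.63, 0.54 and 0.87 FPKM in the naïve libraries and at 651.75, 516.98 and 501.49 FPKM in the TCR activated libraries. It went from nearly absent to among the most abundant mRNA in every activated library. The log2 fold change was 9.49 (standard error 0.15, limma adjusted p = 2.7e-12), the largest of the 10 subunits. With PI3Kdi, the libraries had 557.76, 529.21 and 603.24 FPKM, which lay within the range of the activated libraries without it. The log2 difference was 0.03 with a 95% interval of -0.30 to 0.35, or 0.81-fold to 1.28-fold (limma adjusted p = 0.93). In the same-numbered libraries the ratio was 0.86, 1.02 and 1.20.

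In CTL kept in IL-2, Il2ra was at 553.83, 524.19 and 445.16 FPKM, and in CTL without IL-2 it was at 107.9, 105.51 and 82.09 FPKM. Every library without IL-2 was far below every library with it. The fall was -2.37 on the log2 scale (standard error 0.12, limma adjusted p = 4.7e-07), and the same-numbered ratios of 0.20, 0.20 and 0.18 were close to each other. Even so, Il2ra without IL-2 stayed above 94% of the genes in that table.

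Il2rb (chromosome 15, 78479256 to 78511621, minus strand), the β chain that the receptors for IL-2 and IL-15 have in common, had 91.44, 72.91 and 84.4 FPKM in naïve cells and 286.13, 246.66 and 236.71 FPKM after activation. It rose by 1.63 on the log2 scale (standard error 0.10, limma adjusted p = 4.1e-08), so that naïve cells already held much of the mRNA of this chain while that of Il2ra was nearly absent. With PI3Kdi the 3 libraries were close together, at 189.59, 184.64 and 189.82 FPKM, and all lay below the activated libraries without it. The difference of -0.44 (standard error 0.10, limma adjusted p = 0.012) passed on p and not on the fold change limit. Taken over same-numbered libraries, Il2rb in the PI3Kdi group stood at 61.3% ± 9.8 (SD, n = 3) of the distance from naïve to TCR activated FPKM. Il2rb also differed between the CTL groups by less than the fold change limit. It was at 495.04, 566.01 and 598.56 FPKM with IL-2 and 303.97, 316.09 and 288.63 FPKM without it (log2 difference -0.87, standard error 0.09, limma adjusted p = 2.5e-05), with no overlap.

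Il2rg (chromosome X, 101264385 to 101268255, minus strand), the common γ chain, was the most abundant of the 10 subunits in naïve cells, at 610.71, 608.78 and 726.13 FPKM. After TCR activation it was at 254.67, 186.91 and 208.11 FPKM, a change of -1.59 on the log2 scale (standard error 0.12, limma adjusted p = 1.9e-07). Of the 10 CD8+ T cell markers, 9 were also called lower on activation and 0 higher, where 23.7% and 25.0% of all genes were. Their median log2 fold change was -1.82. FPKM is scaled within each library, so these are falls in share, and mRNA per cell was not measured. In FPKM, the shared chain moved opposite to Il2ra and Il2rb in the same libraries. Its values with PI3Kdi did not pass the test against activation alone, with 248.28, 266.71 and 257.47 FPKM, a log2 difference of 0.26 and a 95% interval of 0.00 to 0.52 (limma adjusted p = 0.16). It did not pass the test between CTL with IL-2 (302.61, 369.01 and 356.29 FPKM) and CTL without it (382.44, 359.03 and 368.11 FPKM). That log2 difference was 0.12 with a 95% interval of -0.09 to 0.32 (limma adjusted p = 0.28), and the groups overlapped.

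Within a library, the ratio of Il2ra to Il2rb was 0.0082 ± 0.00184 before activation, 2.16 ± 0.0991 after it and 3.00 ± 0.163 with PI3Kdi (SD, n = 3). The last 2 groups did not overlap, at 2.10 to 2.28 and 2.87 to 3.18. Il2ra hardly differed between them, and it was the Il2rb values that were lower with PI3Kdi. In CTL the ratio was 0.93 ± 0.188 with IL-2 and 0.324 ± 0.0362 without it. Each of these steps gave p = 0.1 in an exact two-sided permutation test, the smallest that 3 libraries against 3 allow, and 0.117 after Benjamini-Hochberg adjustment over 28 ratio tests (7 pairs of subunits in 4 comparisons).

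Il7r (chromosome 15, 9506159 to 9529941, minus strand) encodes CD127, the private chain of the IL-7 receptor. Its levels ran against those of Il2rb and Il2ra in several steps, and its FPKM was 81.93, 80.41 and 88.33 in naïve cells. After activation it was at 12.37, 9.82 and 5.94 FPKM, the third library being clearly the lowest (log2 fold change -3.20, standard error 0.23, limma adjusted p = 1.4e-07). With PI3Kdi it was at 25.28, 28.67 and 38.3 FPKM, above each activated library without the inhibitor and below each naïve library. The rise over TCR activation alone was 1.74 on the log2 scale (standard error 0.23, 95% interval 1.24 to 2.25, limma adjusted p = 0.00048), and the same-numbered ratios were 2.04, 2.92 and 6.45. Without the third activated library the log2 fold change was 1.45, and Il7r was still called. In the PI3Kdi group, 71.8% ± 10 (SD, n = 3) of the difference in Il7r FPKM between naïve and activated cells remained. The myeloid and dendritic cell marker sums were lower with PI3Kdi, where Il7r and Il6ra were higher, and their part in these results was not tested.

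IL-2 removal gave Il7r its highest levels in the series, with the caveat that the 2 tables were normalised apart and not tested against each other. CTL in IL-2 had 61.94, 50.06 and 26.59 FPKM, a spread in which the third library was again the lowest, and CTL without IL-2 had 429.99, 414.47 and 388 FPKM. The log2 fold change was 3.23 (standard error 0.25, limma adjusted p = 3.4e-06), with same-numbered ratios of 6.94, 8.28 and 14.6. The Cd79b mRNA, the only one of 7 B cell markers in the CTL table, also rose in these cells, from 2.74 to 6.3 up to 10.8 to 20.64 FPKM. Of the 10 CD8+ T cell markers, 4 were called higher and 0 lower, where 14.3% of all genes were called higher and 13.9% lower. The 4 were Cd5, Cd3d, Cd8b1 and Cd3g (log2 fold changes 2.06, 1.32, 1.18 and 1.13). Of the myeloid and dendritic, CD4 and NK cell markers, Itgam, Itgax and Cd4 were called higher (3.44, 3.51 and 2.29). Fcer1g, Ikzf4 and Eomes were called lower (-2.30, -3.06 and -3.02). All of these marker changes came with the Il7r, Il6ra and Il6st rises without IL-2, and their part in those results was not tested.

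The promoter sequences of 8 of the 10 subunits were at hand from RefSeq (GRCm38.p6), and the 250 bases before the start that this promoter table uses for each gene were searched on both strands for TTCNNNGAA, the palindromic core that STAT5 binds, and for GTAAACA, a core that FOXO factors bind. The STAT core was found in Il7r and Il12rb2, which moved in opposite directions on IL-2 removal, and in 7.02% of 32851 promoters. The FOXO core was found in Il21r alone and in 3.17% of promoters. The stretches are shown 5′ to 3′ on the strand of the gene with the core in capitals, since they are the only matches among the subunits; a match is a description of the letters and not evidence of binding. The starts used by the table were bases 9529876 (Il7r), 67376188 (Il12rb2) and 125603429 (Il21r), which lie inside the gene bounds given here, so that these windows overlap the outer end of the gene models. The first capital lies 142 (Il7r), 123 (Il12rb2) and 38 (Il21r) bases before those starts, and the Il21r stretch is within the bounds of its gene. The stretches lie at chr15:9530000-9530028, chr6:67376293-67376321 and chr7:125603381-125603407.
Il7r: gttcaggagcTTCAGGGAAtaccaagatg
Il12rb2: gttcccttttTTCTCAGAAccgcactaag
Il21r: ggcggggcacTGTTTACcacatcccct

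Il4ra (chromosome 7, 125552271 to 125579474, plus strand), the signalling chain for IL-4 and IL-13, was not called in any of the 4 comparisons. It was at 63.08, 63.87 and 64.13 FPKM in naïve cells and at 47.46, 33.55 and 37.31 FPKM after activation, lower in every library but short of the fold change limit (log2 difference -0.71, limma adjusted p = 0.00014). With PI3Kdi it was at 43.68, 44.96 and 48.76 FPKM, overlapping the activated group (log2 difference 0.23, 95% interval -0.02 to 0.48). CTL had 104.74, 104.89 and 95.77 FPKM with IL-2 and 106.03, 113.02 and 124.31 FPKM without it, a log2 difference of 0.17 that did not pass (limma adjusted p = 0.098), although the groups did not overlap.

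Il21r (chromosome 7, 125603252 to 125634397, plus strand), the private chain for IL-21, lies beside Il4ra on the same strand and had a different profile. Naïve cells had 151.15, 135.89 and 149.6 FPKM and TCR activated cells 79.72, 66.48 and 73.29 FPKM. The log2 difference of -0.99 (standard error 0.08, limma adjusted p = 6.1e-07) was at the edge of the fold change limit, and Il21r was called lower when either the second naïve library (-1.04) or the first activated library (-1.06) was left out. PI3Kdi put it lower again, at 50.4, 49.29 and 51.34 FPKM. All 3 libraries were below the activated ones by -0.53 (standard error 0.08, limma adjusted p = 0.0016), again within the fold change limit, and the change from naïve to PI3Kdi, -1.53, was called (limma adjusted p = 2.2e-08). In CTL it was at 78.35, 82.51 and 84.04 FPKM with IL-2 and 46.29, 49.11 and 46.63 FPKM without it. That log2 difference of -0.78 (limma adjusted p = 9e-06) also had no overlap and stayed under the limit. Il21r and Il2rb were the subunits that were lower, without overlap, both with PI3Kdi and without IL-2.

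Since Il2rb, Il7r, Il4ra and Il21r all pair with the γ chain, their FPKM were summed in each library and each was given as a share of the sum. The sum was 376 ± 19.6 FPKM in naïve cells and 378 ± 40.9 FPKM after activation (SD, n = 3), whereas its make-up was different. Il21r had the largest share in naïve cells, 38.7% ± 0.26, and Il2rb in activated cells, 67.8% ± 1.2. The Il7r share was 22.3% ± 0.97 in naïve cells, 2.45% ± 0.67 after activation and 9.72% ± 1.8 with PI3Kdi. In CTL the sum was 783 ± 37 FPKM with IL-2 and 876 ± 24.4 FPKM without it. There the Il2rb share was 70.6% ± 3.7 with IL-2 and 34.6% ± 0.72 without it, and the Il7r share 5.97% ± 2.5 and 46.9% ± 1.4. Without IL-2, Il7r thus took the place of Il2rb as the largest of the 4 in all 3 libraries. The Il4ra share was between 9.41% and 18.1% in all 15 libraries.

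**Figure D3:**
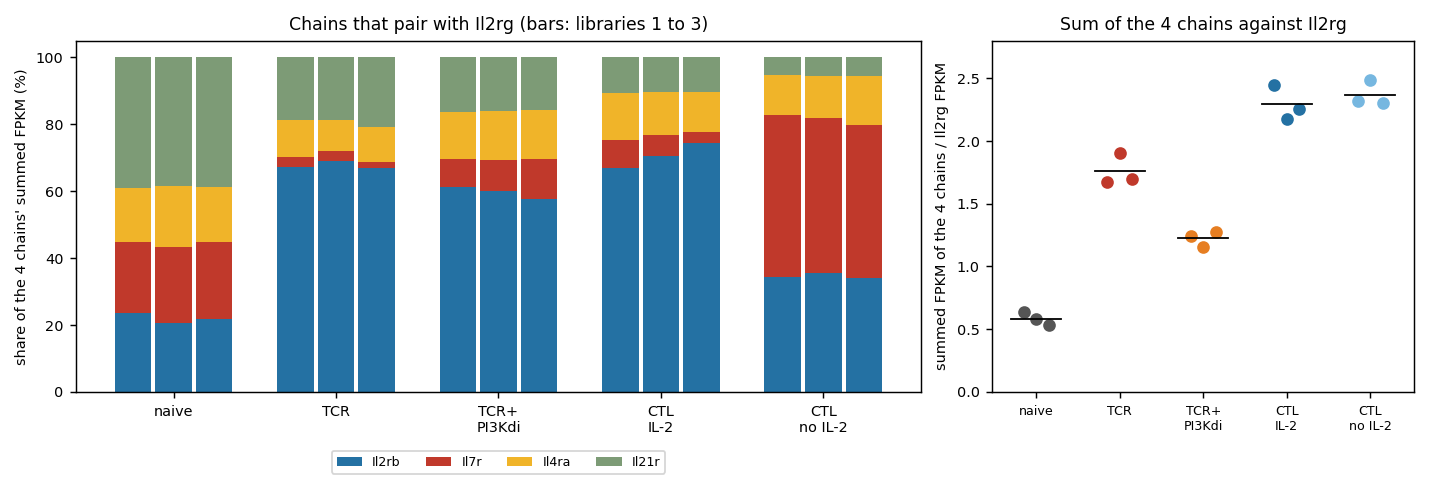
Left, share in percent of the summed FPKM of Il2rb, Il7r, Il4ra and Il21r in each of the 15 libraries, as stacked bars of 3 replicates a group; right, that sum divided by the FPKM of Il2rg, with points for libraries and lines for means of 3. Il2rb holds the largest share in TCR activated cells, with PI3Kdi and in CTL with IL-2, and Il7r in CTL without IL-2.

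The sum of these 4 chains was below the level of Il2rg in naïve cells, at 0.582 ± 0.051 of it, and above it in each other group: 1.76 ± 0.13 after activation, 1.22 ± 0.063 with PI3Kdi, 2.29 ± 0.14 in CTL with IL-2 and 2.37 ± 0.1 in CTL without it. Naïve cells therefore held more γ chain mRNA than mRNA of these partners, and activated cells less. Taken singly, Il7r per Il2rg was 0.129 ± 0.00671 in naïve cells, 0.0432 ± 0.0129 after activation and 0.119 ± 0.0256 with PI3Kdi, where it overlapped the naïve range (exact permutation p = 0.4, adjusted 0.448). Both genes were lower than in naïve cells in that group, so the like ratio does not stand for a like level. Il4ra per Il2rg overlapped between activated cells with and without PI3Kdi (0.178 ± 0.0106 and 0.182 ± 0.00403, exact permutation p = 0.5) and between the CTL groups (exact permutation p = 0.8).

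Il6ra (chromosome 3, 89869324 to 89913196, minus strand) encodes the IL-6 binding chain and had the steepest fall of the 10. It went from 58.88, 56.78 and 68.8 FPKM in naïve cells to 1.3, 1.33 and 1.38 FPKM after activation (log2 fold change -5.42, standard error 0.16, limma adjusted p = 1.6e-10). With PI3Kdi it was at 4.52, 6.39 and 7.15 FPKM. Every library with PI3Kdi was above every activated library without it and far below every naïve one. The rise was 2.07 on the log2 scale (standard error 0.16, 95% interval 1.71 to 2.42, limma adjusted p = 1.5e-05), with same-numbered ratios of 3.48, 4.80 and 5.18. In FPKM, 92.2% ± 1.9 (SD, n = 3) of the fall seen on activation remained with PI3Kdi.

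CTL in IL-2 had almost no Il6ra mRNA, at 0.02, 0.06 and 0.05 FPKM, above 0.214% of the genes in that table. CTL without IL-2 had 2.73, 2.21 and 1.8 FPKM. Every library without IL-2 was higher, and the limma adjusted p was 9.7e-07. The values with IL-2 correspond to about 2 to 6 fragments a library, estimated with an exon length of 8642 bases, and files rounded to 2 decimals hold no finer value. The size of the fold change therefore depends on the pseudocount: it was 4.02 on the log2 scale with 0.1 and ranged from 1.63 to 5.47 over the alternatives.

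Il6st (chromosome 13, 112464070 to 112506860, plus strand), which encodes gp130, followed Il6ra in direction with smaller changes. It had 92.85, 82.83 and 92.58 FPKM in naïve cells and 28.26, 27.85 and 35.43 FPKM after activation (log2 fold change -1.55, standard error 0.14, limma adjusted p = 8.2e-07). With PI3Kdi it was at 48.43, 60.32 and 70.13 FPKM, between the other two groups and overlapping neither. The log2 difference from activation alone was 0.96 (standard error 0.14, limma adjusted p = 0.00086), just under the fold change limit. It passed that limit without the third activated library (1.07) or without the first PI3Kdi library (1.10). Of the difference in Il6st FPKM between naïve and activated cells, 49.7% ± 17 (SD, n = 3) remained with PI3Kdi, and the change from naïve cells, -0.60, was not called. CTL had 2.21, 1.76 and 2.65 FPKM with IL-2 and 4.37, 4.63 and 6.22 FPKM without it. This rise of 1.17 on the log2 scale (standard error 0.19, limma adjusted p = 0.00041) was called, but was 0.92 and not called with a pseudocount of 1.

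The ratio of Il6ra to Il6st, the binding over the signalling chain, was 0.688 ± 0.0545 in naïve cells and 0.0442 ± 0.00466 after activation, so that the binding chain fell by more than the signalling chain. It was 0.1 ± 0.00644 with PI3Kdi, 0.0207 ± 0.0126 in CTL with IL-2 and 0.464 ± 0.168 in CTL without it. No 2 of the groups compared overlapped (exact permutation p = 0.1, adjusted 0.117). The libraries of CTL without IL-2 were spread, at 0.625, 0.477 and 0.289.

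Il12rb1 (chromosome 8, 70808360 to 70823542, plus strand), the chain that the receptors for IL-12 and IL-23 share, rose from 6.2, 5.31 and 6.6 FPKM to 67.38, 52.75 and 53.37 FPKM on activation (log2 fold change 3.24, standard error 0.12, limma adjusted p = 9.7e-10). PI3Kdi left it at 72.87, 69.15 and 59.61 FPKM, overlapping the group without it. The log2 difference was 0.22 with a 95% interval of -0.05 to 0.49. In CTL it was at 157.02, 170.59 and 161.63 FPKM with IL-2 and 62.88, 73.84 and 54.39 FPKM without it, a fall of -1.37 (standard error 0.11, limma adjusted p = 3.9e-06).

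Il12rb2 (chromosome 6, 67285986 to 67376293, minus strand), the private and signalling chain of the IL-12 receptor, had 4.65, 3.73 and 3.77 FPKM in naïve cells and 183.36, 124.11 and 98.77 FPKM after activation. Every activated library was far above the naïve ones, with a wide spread among them (log2 fold change 4.99, standard error 0.18, limma adjusted p = 7.1e-10). With PI3Kdi, the libraries had 229.87, 209.38 and 219.27 FPKM, all above the activated libraries without it. That log2 difference of 0.74 (standard error 0.18, 95% interval 0.34 to 1.15, limma adjusted p = 0.018) did not reach the fold change limit. It was 0.54 to 0.99 over the alternatives. CTL in IL-2 had 163.37, 165.96 and 165.6 FPKM, and CTL without it 65.21, 75.15 and 88 FPKM, a fall of -1.13 (standard error 0.10, limma adjusted p = 1.1e-05).

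The model of Il12rb2 overlaps that of Serbp1 on the other strand, and how the strand was used in counting is not given in the sources used here. Serbp1 was at 82.16 ± 4.73 FPKM in naïve cells, 245.6 ± 2.79 after activation, 214.8 ± 4.78 with PI3Kdi, 150.8 ± 22.2 in CTL with IL-2 and 67.15 ± 2.22 in CTL without it (SD, n = 3). It was thus higher on activation and lower without IL-2, as Il12rb2 was, but lower with PI3Kdi, where Il12rb2 was higher. Its part in the Il12rb2 values was not tested. The models of Il2ra, Il2rg, Il4ra and Il6ra also overlap predicted genes, Gm37881 and Gm20489 on the same strand and Gm44876 and Gm42809 on the other, whose reads could have been counted with theirs.

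The ratio of Il12rb2 to Il12rb1 was 0.675 ± 0.0926 in the naïve group, 2.31 ± 0.437 after activation and 3.29 ± 0.345 with PI3Kdi, with no overlap between these groups. In CTL it was 1.01 ± 0.0353 with IL-2 and 1.22 ± 0.341 without it. There the groups overlapped and both chains were lower without IL-2 (exact permutation p = 0.5, adjusted 0.519).

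**Figure D4:**
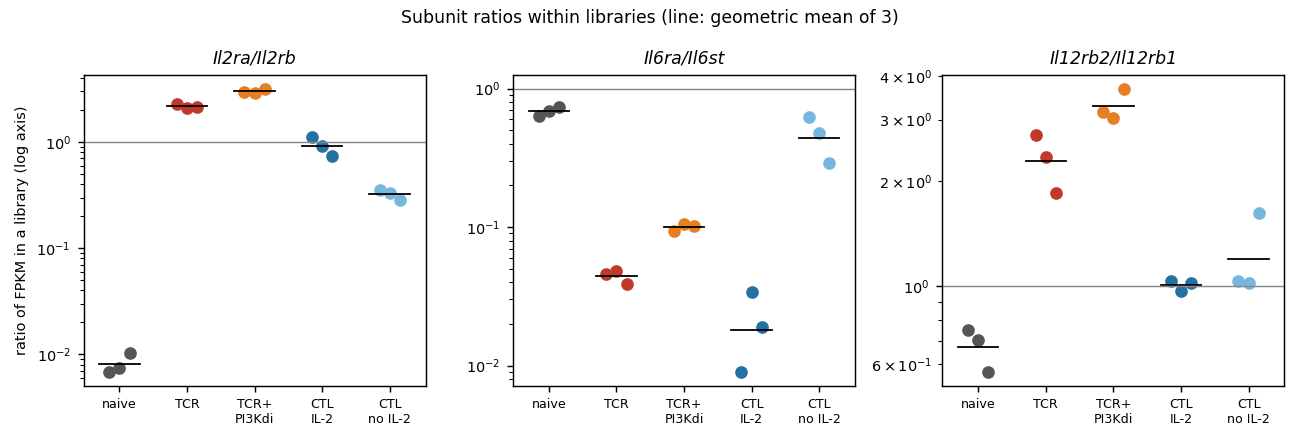
Ratio of FPKM of 2 subunits of a receptor within each library, on log axes, by group; points are libraries, black lines are geometric means of 3 and the grey line marks a ratio of 1. Il2ra exceeds Il2rb only in the activated groups and in 1 CTL library with IL-2, at 1.12, and Il6ra lies below Il6st in all 15 libraries.

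Over the 15 libraries, each gene centred on its mean within each table, the pairs of subunits that ran most alike were Il2ra with Il12rb1 and with Il12rb2 (Pearson r = 0.99 for each), Il12rb1 with Il12rb2 (0.98), Il7r with Il6ra (0.95), Il2rb with Il12rb1 (0.94) and Il6ra with Il6st (0.93). The most opposed were Il2rb with Il6ra (-0.96) and Il2ra with Il2rg (-0.95). These values describe 5 groups of 3 libraries that share tables and normalisation. Among 9625 genes in both tables with a mean FPKM of at least 1 in each, the genes closest to Il2ra included Cdc45 (0.997) and Orc1 (0.997), and those closest to Il7r were Frat1 (0.982), Klhl24 (0.978) and Pdk2 (0.977). Klhl24, for example, was at 13.1 ± 1.67 FPKM in naïve cells, 1.61 ± 0.336 after activation, 3.49 ± 0.0755 with PI3Kdi, 1.44 ± 0.654 in CTL with IL-2 and 18.1 ± 2.25 in CTL without it (SD, n = 3).

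Of 18 genes for ligands of the subunits, 6 were in each table. On activation 5 rose and 1 fell, where 25.0% of all genes were called higher and 23.7% lower. The 1 that fell was Clcf1, a cytokine of the IL-6 family. Il2 itself was listed at 0 in the naïve libraries and was at 10.8 ± 7.45 FPKM in TCR activated cells and 2.9 ± 0.391 FPKM with PI3Kdi, a fall of -1.61 (limma adjusted p = 0.021). Il21 was higher with PI3Kdi, at 14.4 ± 6.57 against 5.94 ± 1.65 FPKM (log2 fold change 1.20, limma adjusted p = 0.02), in the cells whose Il21r values were lower. Lif and Osm, ligands that signal through gp130, fell with PI3Kdi by 1.09 and 1.21 on the log2 scale, in the libraries whose Il6st values lay above those without it. Without IL-2, 4 of the 6 ligand genes in the CTL table fell (Il4, Il13, Lif and Osm) and 1 rose (Ebi3). Of all genes in that table, 13.9% were called lower and 14.3% higher. Lif went from 90.6 ± 10.5 to 1.71 ± 0.502 FPKM.

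Of 11 JAK and STAT genes, 1 rose and 5 fell on activation, where 25.0% of all genes were called higher and 23.7% lower. The riser was Stat5a, a STAT used by the IL-2 and IL-7 receptors, from 27.9 ± 2.88 to 109.1 ± 7.99 FPKM (SD, n = 3). It was the only one of the 11 called with PI3Kdi, where 5.14% of all genes were called. Stat5a was then at 41.5 ± 9.57 FPKM (log2 fold change -1.41, limma adjusted p = 9.2e-05). Jak1, the kinase bound by most of the private chains described here, fell from 275.3 ± 3.96 to 54.8 ± 4.62 FPKM on activation. Without IL-2, 2 of the 11 rose and 0 fell, where 14.3% of all genes were called higher and 13.9% lower. The 2 were Jak1, by 1.25 on the log2 scale, and Stat4, the STAT of the IL-12 receptor, by 1.66, while both IL-12 receptor chains fell. Of 8 SOCS family genes, which encode feedback inhibitors of cytokine receptors, Cish and Socs2 rose and Socs5 fell on activation. Cish went from 1.86 ± 0.275 to 88.6 ± 5.46 FPKM, and in CTL without IL-2 it fell from 219.8 ± 21.5 to 19.5 ± 2.81 FPKM along with Socs1 and Socs2. Socs2 was the only SOCS gene called with PI3Kdi, rising from 4.11 ± 1.25 to 28.2 ± 11 FPKM.

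Other cytokine receptor subunits were not all like the 10. Of 47 listed, 24 were in the first table. On activation 6 of these rose and 13 fell, where 25.0% of all genes were called higher and 23.7% lower. The largest rises were in Il23r, Il1rl1 and Epor and the largest falls in Ifngr2, Il17rb and Il27ra. Some of these were near the floor or widely spread. Epor went from 0 to 0.567 ± 0.333 FPKM, and Il1rl1 from 0.00333 ± 0.00577 to 2.52 ± 2.05 FPKM (SD, n = 3). Il17rb went from 0.763 ± 0.0611 to 0.0333 ± 0.00577 FPKM. Il23r, which pairs with Il12rb1 to bind IL-23, reached 3.13 ± 1.31 FPKM. With PI3Kdi, 0 of the 24 rose and 4 fell, where 3.04% of all genes were called higher and 2.10% lower. The largest falls among the 24 were in Il1rl1, Il18r1 and Il18rap (-2.72, -1.63 and -1.42 on the log2 scale). Il1rl1 was at 0.233 ± 0.0751 FPKM with PI3Kdi. Il18r1 was at 14.4 ± 8.83 FPKM without PI3Kdi and 4.8 ± 3.59 FPKM with it, and these libraries overlapped. Il18rap was at 8.4 ± 4.14 and 3.11 ± 1.71 FPKM, without overlap. Without IL-2, 8 of 23 in the CTL table rose and 1, Il1rl1, fell, where 14.3% of all genes were called higher and 13.9% lower. The largest rises among the 23 were in Il11ra1, Ifnar2 and Il18r1 (2.03, 1.40 and 1.39). Il11ra1, which like Il6ra hands its ligand to gp130, was at 0.303 ± 0.0862 FPKM with IL-2 and 1.55 ± 0.387 FPKM without it.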

How the data were processed

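The authors aligned paired-end reads of 75 bases to mm10 with STAR 2.5.2b, counted them per gene with Subread 1.5.1, filtered low genes, normalised by TMM in edgeR and deposited FPKM per length of exon, rounded to 2 decimals, with the naïve and activated cells in one table of 11262 genes and the CTL in another of 11211. The CTL values were taken to have been made in the same way. The 1039 blank cells of the first table were read as 0. Samples were grouped by title, since the treatment labels of 2 CTL samples in IL-2 name other interleukins.

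Values of log2(FPKM + 0.1) were fitted with limma 3.58.1 in R 4.3.3 with an intensity trend, 9 libraries in one fit and 6 CTL libraries in another, and two-sided p-values received Benjamini-Hochberg adjustment across each table. Fold changes on this scale understate changes of low genes. Subunit ratios were compared by exact permutation tests in Python 3.11.15 with scipy 1.17.1. The replicates of the first table were separate pools of mice; for CTL the labels do not state separate mice, and p-values then measure only the spread between these samples. In simulated data, 99.5% to 100.0% of 200 genes changed 8-fold were recovered, with 2 to 4 false calls in each comparison. The simulation held no smaller changes, no changed genes of very low level and no shared replicate effect. It therefore does not bear on calls near the fold change limit or near the floor. The total per library is not given in the sources used here; the depth was estimated from the spacing of low FPKM values and GENCODE exon lengths and is approximate. The members, gene lists and tests were chosen with earlier results of these data known. Outside the 10 subunits, the genes named are those called among the ligand, JAK, STAT and SOCS lists, the 3 largest rises and falls among other receptor subunits, and the 3 genes most like Il2ra and Il7r, of which 1 is not reported here. The alternatives were other pseudocounts, a filter at a mean FPKM of 1, median scaling, no intensity trend, a block for the replicate number, other fold change limits, fits of the compared groups only and leaving out each library. Leaving out libraries for the subunit ratios was added after seeing the data.

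Same-numbered libraries deviated together between activated cells with and without PI3Kdi (Pearson r across genes 0.20 to 0.51) and between the CTL groups (0.12 to 0.26), so these numbers were taken to pair the libraries. For naïve and activated cells r was -0.18 to 0.23, although the pools were split over these conditions. The percentages of the naïve to activated difference that remained with PI3Kdi also matched naïve libraries by number. Their means and SD therefore depend on a match that the naïve libraries did not show.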

Additional observations from a re-analysis of the deposited data

How the results depend on the processing

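Of 590 recomputed log2 fold changes of single subunits, 565 kept their direction and their side of the call, 21 gained a call, 1 lost it and 3 changed sign. Without a fold change limit, 9096 genes were called between naïve and TCR activated cells, 1975 for PI3Kdi, 8906 between naïve cells and PI3Kdi and 8056 in CTL. A limit of 1.5 gave 1120 for PI3Kdi and 5657 in CTL, and a pseudocount of 1 gave 311 for PI3Kdi. With either of these looser limits, 4 subunits were called higher with PI3Kdi, and 5 were called lower in CTL without IL-2; without a limit, 2 were lower with PI3Kdi. With single libraries left out, the log2 difference of Il2ra with PI3Kdi, which was not called, ran from -0.05 to 0.14, and the log2 ratio of Il4ra to Il2rg, not called either, from -0.08 to 0.01 with PI3Kdi and from -0.02 to 0.16 in CTL. Il6st in CTL lost its call with a pseudocount of 1. The replicate block, which pairs same-numbered libraries, changed no call among the subunits; Il7r with PI3Kdi had a limma adjusted p of 0.0017 with it. Depth limits Il6ra in CTL with IL-2, where a few fragments set the level.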
